A study of Mus musculus with 4 samples.

Results

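Strong Foxa2-only sites are places in the genome where Foxa2 binding was listed with a high score and neither Insm1 nor Neurod1 was listed on the same bases. They were chosen from the deposited Foxa2 list as sites with a score of 75 or more and a width above 60 bp that share no base with any site of the Insm1 or Neurod1 list. Of the 28379 Foxa2 sites, 7144 were strong and wide enough, and 1918 of these had neither partner. The other 5226 strong sites carried a partner: 3645 carried both, 1152 Insm1 only and 429 Neurod1 only. Score, width and overlap thus chose the members, so these shares are descriptions and carry no test. The share with neither partner was 59.6% among all Foxa2 sites wider than 60 bp, and 11.4% of all such partnerless sites reached the score of 75.

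Chromatin immunoprecipitation with sequencing (ChIP-seq) was done in 1 mouse beta cell line using antibodies against Foxa2, Insm1 and Neurod1 and an IgG control. The line came from islets of RIP1-Tag2 transgenic mice, aged 6 weeks and of a mixed C57BL/6, 129/ola and CBA/J background, and was used at passages 10 to 15 in medium with 25 mmol/l glucose. RIP1-Tag2 is a viral oncogene under an insulin promoter, so these are transformed beta cells and all groups share that transgene and culture. There was 1 list of sites per factor, no spread between replicates can be had, and the IgG sample entered no comparison.

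Foxa2 is a forkhead factor that can bind its sites in closed chromatin and help to open them, which is why it is called a pioneer factor. It acts early in the formation of gut, liver and pancreas and stays on in adult beta cells, where it is needed for normal insulin secretion. Insm1, a zinc finger protein, and Neurod1, a basic helix-loop-helix protein, are factors of endocrine and neuronal cells. A strong Foxa2 site without them is thus a place where the general endoderm factor was found and the endocrine factors were not listed.

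An absent partner means an absent entry in a list, not a measured absence of protein. The lowest score in the Insm1 list was 76 and that in the Neurod1 list 46, and weaker binding cannot be seen. The score has no definition in the sources used here and is used here only to set sites of the same list side by side. Read depth is likewise unknown. All intervals below are 95% intervals over sites, which treat sites as independent and cover counting error only.

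The members had a median score of 100 (interval 98 to 101), with a 10th percentile of 78 and a 90th of 185. Strong partnered sites had a median of 134 (131 to 136). Members made up a smaller part of the strong sites as the score rose. They were 41.1% of strong sites scoring 75 to under 100 (954 of 2323), 26.9% of those scoring 100 to under 150 (628 of 2331), 15.7% of those scoring 150 to under 300 (294 of 1872) and 6.8% of those scoring 300 or more (42 of 618). Sites just outside the score limit, at 70 to under 75 with neither partner, numbered 336 and had a median width of 206.5 bp. Sites just inside it, at 75 to under 80, numbered 272 and had a median width of 204.5 bp.

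The members were slightly narrower than strong partnered sites and wider than weak ones. Their median width was 205 bp (203 to 208 bp), compared with 212 bp (211 to 213 bp) for strong partnered sites and 189 bp (188 to 190 bp) for weak sites with neither partner, which have a score under 75. Among the partnered sites, the median was 213 bp (211 to 215 bp) with both partners and 210 bp (207 to 213 bp) with Insm1 only. With Neurod1 only it was 206 bp (202 to 210 bp), close to the members. The summit, the position of the strongest signal, lay between 25 and 75% of the way along the site in 89.4% of members, 91.1% of strong partnered sites and 80% of weak partnerless sites. The difference from the weak sites was 9.37 percentage points (Newcombe interval 7.77 to 10.8). Across the 1918 members, which share 1 library, Spearman's rho of width with score was -0.0059. Among the narrowest members, 52 were 61 to 100 bp wide, or 2.71%, beside 1.09% of strong partnered sites and 8.87% of weak partnerless sites. These widths and shares are descriptions, since the rule used width and a narrow site overlaps a partner less easily. Of the partnerless sites that reached the score of 75 and fell just below the width limit, 43 were 52 to 60 bp wide and had a median score of 714. Of the members just above it, 17 were 61 to 70 bp wide and had a median score of 103.

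Members lay beside a partner more often than weak partnerless sites did. An Insm1 or Neurod1 summit lay within 1 kb of the Foxa2 summit at 278 of 1918 members (14.5%). The same was true of 772 of 14843 weak partnerless sites (5.20%). The difference was 9.29 points (Newcombe interval 7.74 to 11). It was 8.90 points (7.35 to 10.6) among sites wider than 100 bp and 5.83 points (3.93 to 7.77) against weak sites scoring 50 to under 75 alone. Those weak sites were at 8.67% (7.63 to 9.83%). The 954 members scoring 75 to under 100 were little above them, at 9.33% (7.64 to 11.3%). The difference for all members was 14.2 points (11.7 to 16.8) with a score minimum of 100. With partner sites above the median score of their list it was 4.78 points (3.93 to 5.71). When partner sites were widened by 500 bp, which removes most such neighbours by construction, 1.48 points (0.781 to 2.38) remained. Over all Foxa2 sites wider than 60 bp, partnered ones included, the share was 44.1%.

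Most of these neighbours lay 200 to 600 bp away. A partner summit lay 200 to 400 bp from 127 members (6.62%) and from 252 weak sites (1.70%), a ratio of 3.90. At 400 to 600 bp the numbers were 59 members (3.08%) and 185 weak sites (1.25%), a ratio of 2.47. At 800 to 1000 bp the ratio was 1.93, and at 1000 to 2000 bp it was 1.09, with 91 members (4.74%) and 645 weak sites (4.35%). Distances under about a site's width are rare by construction, since such sites would overlap.

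**Figure D1:**
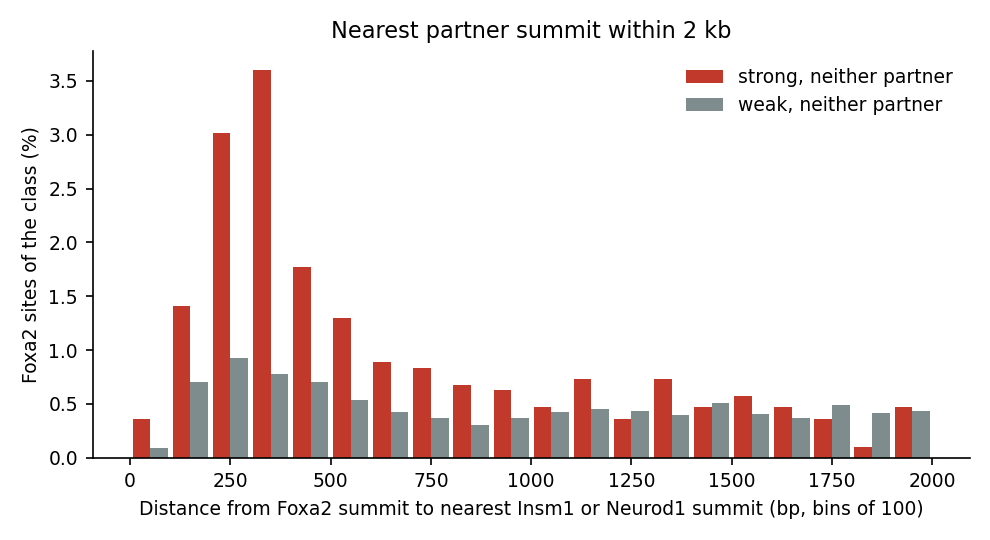
Distance from the Foxa2 summit to the nearest Insm1 or Neurod1 summit (bp, bins of 100) against the percentage of each class of Foxa2 sites, for strong (red, 1918 sites) and weak (grey, 14843 sites) sites with neither partner. The red bars are highest between 200 and 400 bp, and both classes are near the same level beyond 1000 bp.

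Past 1 kb, strong and weak partnerless sites differed by no more than counting error in their distance from partners. Among sites with no partner summit within 1 kb, 25.7% of members (421 of 1640) and 25.3% of weak sites (3562 of 14071) had one within 10 kb. The difference was 0.356 points, with an interval of -1.82 to 2.64. The median distances of these remaining sites were 29 and 29.3 kb. Counted over all members, the median distance to the nearest partner was 20.3 kb (18.7 to 23.0 kb), and 36.4% had one within 10 kb against 29.2% of weak sites (difference 7.25 points, 5.0 to 9.54) and 58.3% of all Foxa2 sites wider than 60 bp. When sites within 500 bp of a partner's edge were counted as partnered, this difference was 1.45 points and its interval reached 0 (-0.757 to 3.75).

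Proximity to a partner rose with the Foxa2 score, on both sides of the limit of 75. A partner summit within 1 kb was found at 3.90% of partnerless sites scoring under 25. Just across the limit the shares were within counting error, at 8.67% (7.63 to 9.83%) for scores of 50 to under 75 and 9.33% (7.64 to 11.3%) for 75 to under 100. A partner that close was found at 15.0% of those scoring 100 to under 150 and at 25.2% (20.6 to 30.4%) of those scoring 150 to under 300. It was found at 21 of the 42 members scoring 300 or more (50%, 35.5 to 64.5%), and at 17 of the 33 of these that were wider than 100 bp. The share within 10 kb, which counts the sites within 1 kb again, was 26.9% in the lowest class. It was 34.7% both at 75 to under 100 and at 100 to under 150, and 64.3% (49.2 to 77.0%) of the 42 members in the highest. The share from 1 to 10 kb alone was not counted by class of score.

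**Figure D2:**
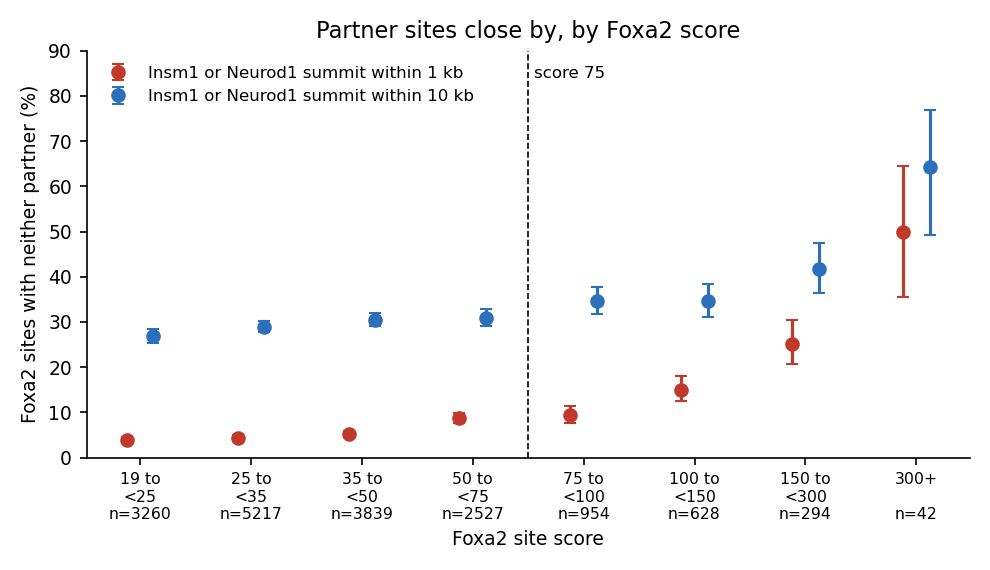
Percentage of Foxa2 sites with neither partner that have an Insm1 or Neurod1 summit within 1 kb (red) or 10 kb (blue), by class of Foxa2 score, with 95% Wilson intervals as bars and the number of sites under each class. The dashed line marks the score of 75, and the share within 1 kb goes from 3.90% in the lowest class to 50% in the highest.

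Most partner sites beside members scored above the median of their lists. Partner sites at strong partnered Foxa2 sites were not compared. The 188 Insm1 sites within 1 kb of a member had a median score of 168.5 (159 to 188), above the Insm1 list's median of 130, and 70.2% of them exceeded that list median. The 476 Insm1 sites next to weak partnerless Foxa2 sites had a median of 119, and 40.5% exceeded it (difference 29.7 points, 21.5 to 37.1). For Neurod1 the 225 sites next to members had a median of 95 (85 to 104), where the list's median was 72, and 68% exceeded it, compared with 43.3% of the 533 next to weak sites (difference 24.7 points, 17.0 to 31.7).

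Of the 278 members with such a neighbour, 135 had both partners within 1 kb (48.6%), 90 Neurod1 only and 53 Insm1 only. Both were within 1 kb at 30.8% of the 772 weak sites with a neighbour, a difference of 17.7 points (Newcombe interval 11 to 24.4). Where both were close, they lay together and on 1 side of Foxa2. Insm1 and Neurod1 summits were on the same side of the Foxa2 summit in 130 of 135 cases (96.3%, 91.6 to 98.4%), and the summits of the partners were within 100 bp of each other in 123 (91.1%, 85.1 to 94.8%), at a median of 32 bp. The same layout was seen at weak sites. At weak sites with both partners close, 96.2% (229 of 238) had them on the same side and 87.8% had their summits within 100 bp, differences of 0.0778 points (-4.92 to 3.95) and 3.30 points (-3.69 to 9.35). Overlap is another measure, and it does not require both partners to be close to Foxa2. In the whole lists, 55.0% of Insm1 sites overlapped a Neurod1 site and 65.7% of Neurod1 sites an Insm1 site. For the partner sites within 1 kb of members these shares were 69.1% (130 of 188) and 58.2% (131 of 225). Within 1 kb of weak partnerless sites they were 47.1 and 42.8%. The Neurod1 sites beside members were thus below their list's share.

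The lists' own spacing bears on this layout. No 2 Foxa2 summits lay closer than 521 bp, and only 126 of the 28379 Foxa2 sites had another within 1 kb (0.444%). The Insm1 and Neurod1 lists had 39 and 62 such sites. Only 1 of the 278 partner sites nearest to these members overlapped a Foxa2 site of its own. Whether further Foxa2 binding under those partner sites was left out of the list cannot be told from the files. Counting only partner sites that no Foxa2 site overlaps, the difference between members and weak sites within 1 kb was 9.42 points (7.87 to 11.1). This count could change little, since at weak sites too only 26 of the 772 nearest partner sites overlapped a Foxa2 site.

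The 278 members beside a partner scored higher than the rest, with a median of 119.5 (112 to 127) against 98 (96 to 99) for the 1640 others, and 21 of each reached 300. They were narrower, at a median of 196 bp (192 to 202 bp) against 207 bp (205 to 209 bp). A narrower site overlaps a neighbour less easily, and the part of width in this was not tested. The 278 members held 19 of the 52 members of 61 to 100 bp.

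The 10 highest-scoring members show these kinds side by side. Of these 10, 5 had a partner summit within 1 kb, 4 had both partners there, and 3 were 100 bp wide or less. The top score of 11035 belonged to a site of 64 bp on chromosome 9 at 35112943 to 35113007, which lay 26.0 kb from the nearest Insm1 summit and 39.2 kb from the nearest Neurod1 summit. Its score was far above that of any strong partnered site, where the highest was 1120. Its width is close to the limit of 60 bp, and what lies behind this score was not tested.

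The next member, on chromosome 13 at 116136512 to 116136731, had a score of 1265 and ranked 19 in the Foxa2 list. Its nearest Neurod1 summit was 408 bp away with a score of 723, rank 17, and its nearest Insm1 summit was 436 bp away with a score of 1054, rank 20. All 3 factors thus had one of their best sites here, and the Foxa2 site shared no base with the other 2. The third, on chromosome 2 at 146191394 to 146191612 with a score of 889, had a Neurod1 summit at 555 bp with a score of 352 and an Insm1 summit at 2581 bp with a score of 463. On chromosome 1 at 6501037 to 6501238, a member scoring 580 had Insm1 at 467 bp and Neurod1 at 542 bp. On chromosome 10 at 51415729 to 51415931, a member scoring 534 had Neurod1 at 549 bp and Insm1 at 568 bp, the latter ranked 182. On chromosome 19 at 17152826 to 17153106, a member scoring 481 had Insm1 at 626 bp and Neurod1 at 704 bp, the latter ranked 49. In these 4 sites with both partners close, Insm1 and Neurod1 lay on the same side of Foxa2.

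The other members of the best 10 had partners farther off. The site on chromosome 1 at 52280353 to 52280570 scored 571 and had its nearest partner, Neurod1, at 8.38 kb. The site on chromosome 17 at 85294942 to 85295146 scored 499 and had Neurod1 at 1.12 kb. The remaining pair were narrow, and what lies behind their scores, and those of the sites near them, was not tested. The site on chromosome 17 at 39984928 to 39985028 was 100 bp wide with a score of 613, and the Neurod1 site 3.70 kb from it ranked 5 in the Neurod1 list. The site on chromosome 13 at 67193353 to 67193451 was 98 bp wide with a score of 493, and another member of 70 bp with a score of 436 lay 2.40 kb from it.

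**Figure D3:**
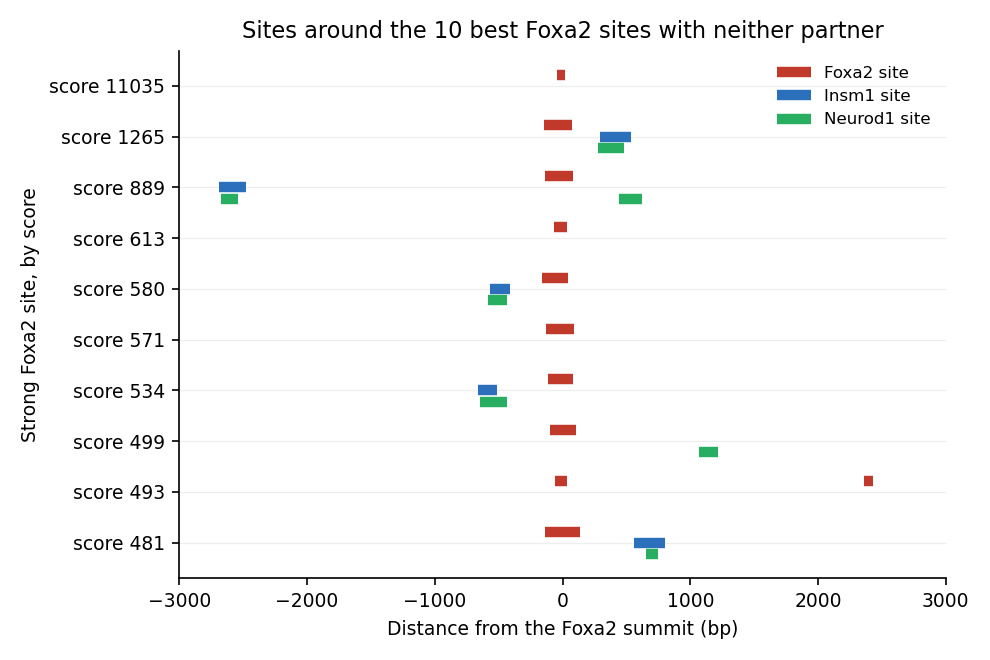
Sites of the Foxa2 (red), Insm1 (blue) and Neurod1 (green) lists within 3000 bp of the summits of the 10 highest-scoring Foxa2 sites with neither partner, drawn to scale from start to end, with the distance from the Foxa2 summit in bp. Blue and green bars lie together beside the Foxa2 site in the rows with scores of 1265, 580, 534 and 481.

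The 5 members closest to a partner were separated from it by less than 100 bp between summits. They had scores of 155, 242, 202, 286 and 290 and distances of 84, 87, 90, 92 and 93 bp, and 4 of them were 106 bp wide or less. The closest lay on chromosome 10 at 127374649 to 127374755, with Insm1 at 84 bp and Neurod1 at 88 bp. Whether such sites count as partnered depends on where the edges of the sites were drawn.

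At the other end, 284 members (14.8%, 13.3 to 16.5%) had no other site of any of the 3 lists within 50 kb. Among weak partnerless sites the share was 18.0%, a difference of -3.23 points (-4.87 to -1.46). The share over all Foxa2 sites was not counted. A site with a partner within 1 kb cannot be isolated, so this difference is not separate from the one within 1 kb. Among sites with no partner within 1 kb, 63.4% of members and 63.4% of weak sites had one within 50 kb (difference -0.0178 points, -2.51 to 2.42). These isolated members had a median score of 98 (95 to 103) and a median width of 214.5 bp (207 to 221 bp), and 3 of them were 100 bp wide or less. The 5 members farthest from any partner had scores of 80 to 115, and 4 of them were on the X chromosome, at 1311 to 1921 kb. The farthest was at 16383225 to 16383413 on X, with a score of 115, and had a weak Foxa2 site 6.08 kb away. The only autosomal one lay on chromosome 4 at 17049759 to 17050016, with a score of 86, 1072 kb from a partner and 924.6 kb from another Foxa2 site.

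Foxa2 sites were less crowded around members than around strong partnered sites. Another Foxa2 summit lay within 10 kb of 711 of 1918 members (37.1%) and of 2221 of 5226 partnered sites (42.5%), a difference of -5.43 points (Newcombe interval -7.95 to -2.87). Weak partnerless sites were at 32.9%, below the members by 4.13 points (1.87 to 6.44), and the share over all Foxa2 sites wider than 60 bp was 36.0%. Median distances to the next Foxa2 summit were 15.9 kb (14.9 to 17.2 kb) for members, 12.9 kb (12.2 to 13.4 kb) for strong partnered sites and 19.1 kb (18.6 to 19.8 kb) for weak partnerless sites. The partnered sites were not alike. Their medians were 11.9 kb (11.3 to 12.7 kb) with both partners and 9.95 kb (8.30 to 12.5 kb) with Neurod1 only. With Insm1 only it was 17.0 kb (15.0 to 18.6 kb), no closer than for members. Within 2 kb the members and partnered sites had shares of 6.15 and 6.12% (difference 0.0290 points, -1.17 to 1.35).

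Since partnered sites score higher, the comparison was repeated within classes of score. Among strong sites scoring 100 to under 150, 37.4% of members and 43.3% of partnered sites had a Foxa2 neighbour within 10 kb (difference -5.86 points, -10.2 to -1.35). Among those scoring 75 to under 100 the shares were 36.7 and 38.8% (difference -2.10 points, -6.08 to 1.92), which did not exceed counting error. Among those scoring 150 to under 300 the difference was -6.25 points, and its interval barely left out 0 (-12.1 to -0.0885). At 300 or more it was -7.74 points (-21.5 to 7.88), within counting error. The members' own share was nearly level over the 4 score classes, from 36.7 to 38.1%.

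**Figure D4:**
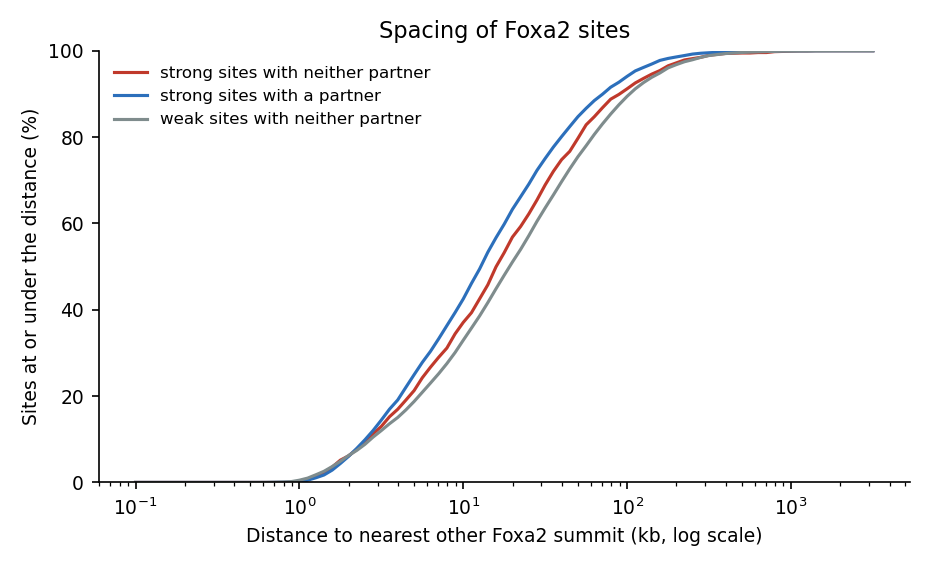
Percentage of sites (vertical axis) whose nearest other Foxa2 summit lies at or under a distance in kb (horizontal axis, log scale), for strong sites with neither partner (red), strong sites with a partner (blue) and weak sites with neither partner (grey). The red curve runs between the others at 10 kb, at 37.1% compared with 42.5 and 32.9%.

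The neighbours themselves were a mixed set. Of the 711 nearest Foxa2 sites within 10 kb of a member, 352 were weak with neither partner, 159 strong with a partner, 139 weak with a partner, 55 strong with neither and 6 were 60 bp wide or less. Neighbours with neither partner made up 58.1% (54.4 to 61.7%), compared with 59.8% of the whole Foxa2 list and 53.4% (51.3 to 55.4%) of the nearest neighbours of strong partnered sites. A Foxa2 site with both partners lay within 50 kb of 37.7% of members, 45.5% of strong partnered sites and 34% of weak partnerless sites, and of 37.9% of all Foxa2 sites wider than 60 bp. The members differed by -7.85 points (-10.4 to -5.27) from the partnered sites and by 3.73 points (1.46 to 6.05) from the weak ones.

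Few members lay close to another member. When members with summits within 25 kb were joined, 1743 of the 1918 (90.9%) had no other member so close. There were 80 pairs and 5 groups of 3 members, which was the largest size. These counts leave out other Foxa2 sites, and 79.7% of members had another Foxa2 summit within 50 kb. Whether members group more or less than other classes of Foxa2 sites was not tested. The group on chromosome 1 at 90456292 to 90476512 had scores of 110, 120 and 78 and no other site of any list in its 20.2 kb, with the nearest partner 51.8 kb away. The group on chromosome 17 at 81900105 to 81926799 had scores of 129, 243 and 82 and held 1 Insm1 site. The group on chromosome 3 at 133874055 to 133906691 had scores of 75, 113 and 136, and the middle site had Insm1 at 0.384 kb and Neurod1 at 0.387 kb. The group on chromosome 13 at 95293237 to 95333271 had scores of 120, 88 and 262, and the last had Neurod1 at 0.367 kb. The group on X at 121265847 to 121283319 differed in shape, with members between 61 and 105 bp wide, scores of 102, 85 and 103 and no partner within 453.6 kb. Its span held 6 Foxa2 sites with the members included. Those that were not members were 52, 115 and 52 bp wide, with scores of 46, 46 and 45.

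On the X chromosome a strong Foxa2 site more often lacked a partner. There, 59 of 128 strong sites had neither partner (46.1%, 37.7 to 54.7%), compared with 1856 of 7013 on the autosomes (26.5%, 25.4 to 27.5%), a difference of 19.6 points (Newcombe interval 11.2 to 28.3). The autosomes ranged from 22.7% on chromosome 11 to 30.8% on chromosome 9, and their intervals overlapped. Seen the other way, 3.08% of members and 1.32% of strong partnered sites were on X (difference 1.76 points, 0.989 to 2.67), against 2.20% of all Foxa2 sites wider than 60 bp. Weak partnerless sites were at 2.74%, within counting error of the members (difference 0.334 points, -0.403 to 1.24). A higher share on X than at strong partnered sites is thus not particular to the strong members. By score, 2.83% of members and 1.31% of strong partnered sites were on X at 75 to under 100. At 100 to under 150 the shares were 4.30 and 1.47%. They were close at 150 to under 300, at 1.70% (5 members, 0.729 to 3.92%) and 1.33% (0.872 to 2.03%). At 300 or more, 0 of 42 members (0 to 8.38%) and 0.868% of partnered sites were on X. Members lay at 0.366 per Mb on X and 0.771 per Mb on the autosomes, so they were sparser on X, but less so than strong partnered sites, at 0.428 and 2.14 per Mb. The Insm1 and Neurod1 lists were sparse on X as well, at 1.06 and 1.11 sites per Mb against 7.18 and 5.99, so a Foxa2 site on X had fewer partner sites to meet. The part of this scarcity in the difference was not tested.

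**Figure D5:**
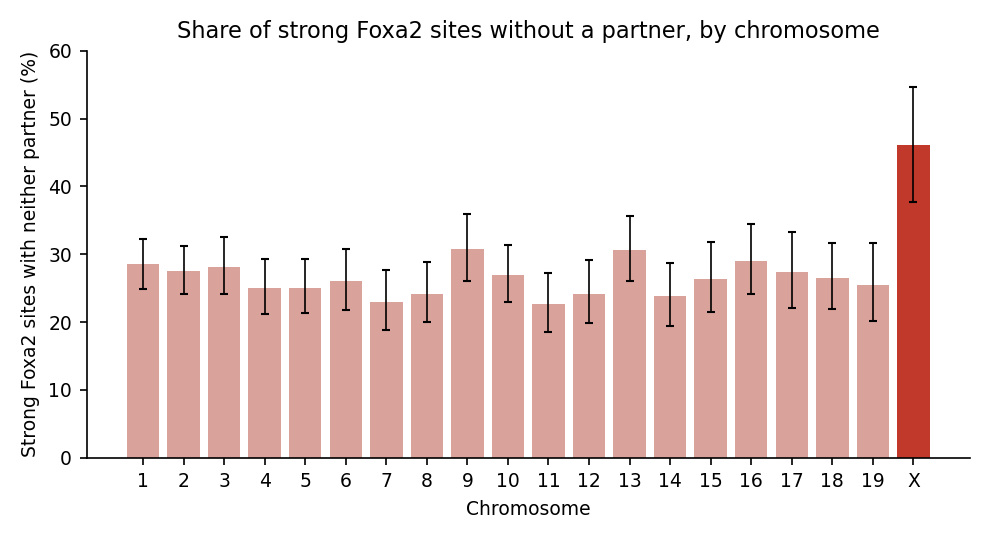
Percentage of strong Foxa2 sites (score of 75 or more, wider than 60 bp) that have neither partner, for each autosome and for X, with 95% Wilson intervals. X stands at 46.1%, above every autosome, which range from 22.7 to 30.8%.

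Within the Foxa2 list, the X-linked and autosomal members differed in score and spacing by less than counting error. Their median score was 102 (92 to 110) against 100 (98 to 101), and their median distance to the next Foxa2 summit was 15.9 kb (9.64 to 24.7 kb) against 15.8 kb (14.8 to 17.2 kb). Their distance to partners was longer, at a median of 111.1 kb (49.8 to 166.0 kb) against 19.8 kb (18.2 to 22 kb), and 3 of the 59 had a partner within 1 kb. The Y chromosome had 3 strong Foxa2 sites, all with neither partner, where the Neurod1 list had 2 sites and the Insm1 list none.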

How the data were processed

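The submitters' processing notes name the tools MACS 1.4, Bowtie 0.12.7 and CASAVA, and the build mm9. Their settings, the control and the use of repeats are not stated there. Each deposited list, without a header, gives chromosome, start, end, an inner position read as the summit, and a whole number used as the authors' score, of unknown definition. Positions are as deposited. Width is end minus start, overlap is 1 bp or more, and distances are between summits. Shares carry 95% Wilson intervals, differences of shares Newcombe intervals, and medians order-statistic intervals. The members, classes and tests were chosen with earlier results of these data known. Sites named are the 10 highest-scoring members, the 5 farthest from and the 5 closest to a partner, and the largest groups within 25 kb, with ties included. Gene and motif comparisons were not run, for want of an mm9 sequence and annotation, and sites are given by position. Counting and intervals were tested on simulated data. The tools were scipy 1.17.1, pandas 2.3.3, matplotlib 3.10.9, numpy 2.4.6 and Python 3.11.15.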

Additional observations from a re-analysis of the deposited data

How the results depend on the processing

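Of 79 alternative values for 8 results, 69 kept their sign and their call, or, for the count and the medians, stayed within 1.5 times or within the interval. The number of members was 3101 with a score minimum of 60, 964 with 100, and 3265 when partner lists were limited to sites above their median score, as more or fewer sites then qualify by construction. The median distance to a partner was 45.6 kb with those limited lists and 27.4 kb with partner sites widened by 500 bp. That widening also brought the excess of members with a partner within 10 kb to 1.45 points, with an interval that reached 0. The excess within 1 kb kept its sign and call at all settings run, from 1.48 points with that widening to 14.2 points with a score minimum of 100. The difference beyond 1 kb was within counting error at all settings and changed sign with a score minimum of 60 (-0.280 points) or 100 (-2.37 points) and with partner sites that overlap no Foxa2 site (-0.376 points). The difference in Foxa2 neighbours changed sign at 2 kb (0.0290 points). The results within and beyond 1 kb, autosomes only, score bands, sites over 150 bp, partner sites without Foxa2 and inclusive ends (1917 members) were added after the data were seen. The motif window and transcription start alternatives were not run. No paired analysis was possible because each factor has 1 list and no replicate number.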
